A study of Mus musculus with 2 samples.

Results

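The barcodes described here are cortical myeloid cells of amyloid-bearing mice in which Cst7, the gene of the cysteine protease inhibitor cystatin F, had more UMIs than P2ry12, the purinergic receptor gene typical of resting microglia. A UMI is a molecular tag that counts 1 captured RNA molecule. Of 4000 deposited barcodes, 872 were kept as cells, because they had 200 or more detected genes and no more than 10% mitochondrially encoded UMIs. Members were chosen by their Cst7, P2ry12, Malat1 and MHC class II counts. A kept barcode was a member with at least 2 Cst7 UMIs, more Cst7 than P2ry12 UMIs, between 0.1% and 4% of its UMIs from the nuclear RNA Malat1, and under 0.3% from the sum of the MHC class II genes Cd74, H2-Aa, H2-Ab1 and H2-Eb1. The rule gave 167 members of 872 kept barcodes. They were 99 of 555 in the control library and 68 of 317 in the photoconversion library.

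Both libraries came from the cortex of male 5xFAD hemizygous mice, which carry mutant human amyloid precursor protein and presenilin transgenes on a C57BL/6J background. In both groups mice received 5 uL of Visudyne, a photosensitising drug, into the cisterna magna at 4 months of age. The control group received the drug alone, and the photoconversion group also received transcranial red light of 689 nm, without heating, in 5 steps, a procedure that ablates meningeal lymphatic vessels. Mice were treated again after 3 weeks and killed another 3 weeks on, at 5.5 months. Cells sorted as live CD45-positive, CD11b-positive and Ly6G-negative singlets from 3 mice were pooled into 1 library per group, so there was no replicate check. No test or p-value is given, differences are those of single libraries, and the treatment and the library cannot be told apart. Intervals are at 95% and cover counting error only.

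Disease-associated microglia are a state described around amyloid plaques and in other neurodegeneration models. Microglia in this state hold less RNA of the homeostatic genes P2ry12, Tmem119 and Cx3cr1 and more of a set that includes Cst7, Lpl, Apoe, Itgax, Csf1 and Igf1. The state is described in 2 stages. The first, which includes Apoe, Tyrobp, B2m and cathepsin genes, does not need the lipid-sensing receptor TREM2, while the later one, which includes Lpl, Itgax, Csf1, Axl and Spp1, does. Cst7 encodes an inhibitor of endolysosomal cysteine proteases and is a marker gene of the state.

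The 6 marker genes are protein-coding, and their spans below are on mm10. Cst7 (ENSMUSG00000068129) lies at chr2:150570415-150578944 on the plus strand, and Lpl (ENSMUSG00000015568) at chr8:68880491-68907448 on the plus strand. Apoe (ENSMUSG00000002985) lies at chr7:19696109-19699188 on the minus strand, and Itgax (ENSMUSG00000030789) at chr7:128129547-128150657 on the plus strand. Csf1 (ENSMUSG00000014599) lies at chr3:107741048-107760469 on the minus strand, and Igf1 (ENSMUSG00000020053) at chr10:87858265-87937042 on the plus strand. The 250 bases before the annotated start of Cst7, which chose the members, and of Itgax and Igf1, which stood furthest above P2ry12-dominant barcodes in both libraries among the other markers, are shown here from RefSeq on GRCm38.p6, the same assembly as mm10. They lie at chr2:150570165-150570414, chr7:128129300-128129549 and chr10:87860861-87861110, all on the plus strand, the last before a RefSeq start inside the annotated span of Igf1, and capitals mark matches to the letters searched.
Cst7: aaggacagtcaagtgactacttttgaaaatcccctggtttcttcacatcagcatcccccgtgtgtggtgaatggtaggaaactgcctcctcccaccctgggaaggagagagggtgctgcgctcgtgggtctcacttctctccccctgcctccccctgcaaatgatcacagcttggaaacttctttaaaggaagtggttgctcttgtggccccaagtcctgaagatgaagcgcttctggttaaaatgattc
Itgax: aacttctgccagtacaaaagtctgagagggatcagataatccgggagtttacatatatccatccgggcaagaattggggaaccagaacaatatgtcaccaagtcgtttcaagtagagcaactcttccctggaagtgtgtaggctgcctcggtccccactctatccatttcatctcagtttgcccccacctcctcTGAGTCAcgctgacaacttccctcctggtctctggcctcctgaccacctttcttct
Igf1: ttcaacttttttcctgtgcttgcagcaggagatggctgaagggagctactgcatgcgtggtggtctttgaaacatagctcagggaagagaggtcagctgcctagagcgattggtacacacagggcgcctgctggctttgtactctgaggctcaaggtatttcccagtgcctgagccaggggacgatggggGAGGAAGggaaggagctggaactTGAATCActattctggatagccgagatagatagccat

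The letters searched on both strands were GAGGAAG, a core bound by the myeloid factor PU.1, TGANTCA, the AP-1 motif, and CACGTG, the palindromic E-box of the lysosomal regulators TFEB and MITF. The Igf1 window holds the first, 60 bases before the start, and the second, 37 bases before it, and the Itgax window holds the second, 56 bases before it. The Cst7 window holds none of these letters, nor do the Csf1 window and the 3 Apoe windows, which are not shown. Of 32851 such windows in the table, 10.6% hold the PU.1 core, 6.75% the AP-1 motif and 6.02% the E-box. Per gene, 5 of 18 genes of the Trem2-dependent list described below have a window with the PU.1 core (27.8%), beside 12% of all genes, and 8 of 29 homeostatic genes do (27.6%). The AP-1 motif is in a window of 4 of 18 Trem2-dependent genes (22.2%) and 2 of 29 homeostatic genes (6.90%), beside 7.82% of all genes. The E-box is in a window of 1 of 18 Trem2-dependent genes (5.56%) and 1 of 29 homeostatic genes (3.45%), beside 6.86% of all genes. Of 7 genes of the Trem2-independent list, 0 have the PU.1 core, 0 the AP-1 motif and 1 the E-box (14.3%). These are matches of letters, described without a test, and no binding was measured.

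Members were deeper than the median kept barcode in both libraries. Total UMIs were 2672902 in the control library against 2038693 after photoconversion, and kept barcodes had medians of 2670 and 3410 UMIs. Members had medians of 10657 and 11312.5 UMIs and of 2409 and 2380.5 detected genes, with 3.11% and 3.08% of UMIs from mitochondrially encoded genes. As the most like barcodes, 239 kept barcodes inside the same Malat1 and class II limits with at least 2 P2ry12 UMIs and more P2ry12 than Cst7, called P2ry12-dominant here, had medians of 3785 and 4012 UMIs. The libraries shared 27 barcodes, and none of them was a member in both.

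The values that chose the members were alike in both libraries, and they are given as a description. Cst7 had 2, 38 and 144 UMIs in the lowest, median and highest control member and 2, 41 and 207 in the photoconversion members. P2ry12 had 0, 10 and 34, and 0, 10 and 39. P2ry12 was thus still counted in most members, and only 5 control and 2 photoconversion members had none. Malat1 took a median of 0.729% and 0.797% of a member's UMIs, and the class II genes 0.0376% and 0.0428%. The P2ry12-dominant barcodes had a median of 1 Cst7 UMI in each library, and at most 11 in the control library and 15 in the photoconversion library.

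At the edges of the rule few barcodes lay on either side. In the control library 3 members had exactly 1 more Cst7 than P2ry12 UMI, and their median share of UMIs from the Trem2-dependent list was 2.66%. The 3 control barcodes just outside, with equal counts, had 2.28%. In the photoconversion library 6 members lay just inside, with 1.97%, and 1 barcode just outside, with 2.31%. At the class II limit, 4 photoconversion members between 0.2% and 0.3% had 2.13% and 4 barcodes between 0.3% and 0.4% had 2.79%. At the edge of Cst7 over P2ry12 the median homeostatic share in the control was 4.68% inside and 6.10% outside. In the photoconversion library it was 8.80% and 7.78%. These barcodes are too few to show whether that edge lay at a gap.

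Markers of microglia were counted in the members of both libraries. All 10 microglial markers were seen, among them Csf1r and the complement genes C1qa, C1qb and C1qc, and they summed to 39930 and 39570 UMIs per 1000000 of the summed total (CPM) in control and photoconversion members, against 57373 and 53213 in the P2ry12-dominant barcodes. The 6 disease-associated markers, of which Cst7 was used by the rule, summed to 18578 and 19476 CPM in members and to 3398 and 3688 in the P2ry12-dominant barcodes. The microglial label therefore held, and no marker list of another cell type was near these sums.

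Markers of other cell types were few. Over all members, monocyte markers had 2 UMIs in the control library and 3 in the photoconversion library, neutrophil markers 1 and 2, dendritic cell markers 1 and 1, and red cell markers 0 and 0. The lymphocyte markers had 323 and 241 UMIs, of which Ighm, the IgM heavy chain gene, held 305 and 237. The endothelial and mural markers had 1034 and 870, of which Bsg, a membrane glycoprotein gene, held 1012 and 763. Border macrophage markers had 84 and 12 UMIs, and 52 of the 84 were in 1 control member. Astrocyte markers had 371 and 76, oligodendrocyte markers 204 and 86, and neuron markers 41 and 10.

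In 3 members the markers of 1 other cell type held over 1% of the UMIs. In a control member of 2338 UMIs, border macrophage markers held 2.22% of the UMIs. In a control member of 5553 UMIs, astrocyte markers held 3.01%, and in a photoconversion member of 3309 UMIs, endothelial and mural markers held 4.68%. These members had 2, 3 and 2 Cst7 UMIs and no P2ry12 UMI. They stay in all values unless said otherwise. Without them, members were 97 of 553 control barcodes (17.5%) and 67 of 316 photoconversion barcodes (21.2%).

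Members made up 17.8% of kept barcodes in the control library (99 of 555, exact Clopper-Pearson interval 14.7 to 21.3%) and 21.5% in the photoconversion library (68 of 317, 17.1 to 26.4%). The difference of 3.61 percentage points had limits of -1.97 and 9.44 from counting error alone, which lie on both sides of no difference. These limits hold no variation between mice or libraries, and the difference was not tested. Among barcodes of at least 2000 UMIs the share was 28.7% in both libraries, and with every kept barcode thinned to 1000 UMIs it was 16.9% (74 of 439) and 18.8% (51 of 272). Among barcodes of at most 5% mitochondrial UMIs it was 19.5% and 26.5%, 7.0 points apart. Among barcodes inside the Malat1 and class II limits it was 35.0% of 283 and 45.9% of 148, which is 11.0 points apart. P2ry12-dominant barcodes were 29.4% (25.6 to 33.4%) and 23.97% (19.4 to 29.1%) of kept barcodes, a difference of -5.39 points with limits of -11.5 and 0.933. Of members and P2ry12-dominant barcodes together, members were 37.8% of 262 and 47.2% of 144.

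Cst7-dominant barcodes outside the limits of the rule are counted here. With no Malat1 or class II limit, Cst7-dominant barcodes were 35.0% (194, 31.0 to 39.1%) of the control and 47.0% (149, 41.4 to 52.7%) of the photoconversion library, a difference of 12.05 points with limits of 5.09 and 19.0. Those within the Malat1 limits that reached 0.3% class II were 8 control (1.44%, 0.624 to 2.82%) and 25 photoconversion barcodes (7.89%, 5.17 to 11.4%), a difference of 6.44 points with limits of 3.40 and 10.1. Those with under 0.1% Malat1 were 83 and 52 barcodes, with medians of 2242 and 2682.5 UMIs. Lifting the Malat1 limits alone gave 31.9% of the control and 36.3% of the photoconversion library, a difference of 4.39 points, and lifting the class II limit alone gave 19.3% and 29.3%, a difference of 10.1 points. The part of the difference in depth between the libraries in these class II shares was not tested.

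Relative to the P2ry12-dominant barcodes of the same library, members held larger shares of UMIs from most Trem2-dependent and most glycolysis and hypoxia genes. Their shares from most homeostatic genes were smaller. Since genes that vary with Cst7 and P2ry12 were chosen along with them, these differences are descriptions of what the rule picked out, not tests. UMIs were summed over members and over P2ry12-dominant barcodes and scaled to CPM, and a gene counted as higher or lower when it was past 1.5-fold in the same direction in both libraries. Of 4911 genes with at least 20 UMIs over both sums in each library, leaving out the genes of the rule, 252 were higher (5.13%) and 788 lower (16%). The median log2 ratio over these genes was -0.26 in the control library and -0.21 in the photoconversion library. Scaling by edgeR's TMM instead of total UMIs added 0.30 to every log2 ratio in each library, which gave 588 higher and 342 lower genes. Members were deeper than P2ry12-dominant barcodes, so a smaller share need not mean fewer UMIs of a gene per barcode. With every barcode thinned to 1000 UMIs, which left 844 genes measured, 98 were higher and 112 lower.

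Apoe, which encodes the main lipid carrier of the brain, was at 12587 CPM in control members and 2802 CPM in control P2ry12-dominant barcodes, a ratio of 4.49 (4.28 to 4.72). In the photoconversion library it was at 13737 and 3020 CPM, a ratio of 4.55 (4.27 to 4.85). Lpl, the lipoprotein lipase gene, was at 621 and 166 CPM in the control (3.75-fold, 3.06 to 4.64) and at 564 and 204 CPM in the photoconversion library (2.76-fold, 2.14 to 3.60). Both lipid genes were thus higher in members of each library, by CPM and by TMM.

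Itgax, the integrin gene that encodes CD11c, was at 169 CPM in control members and 12.3 CPM in P2ry12-dominant barcodes (13.8-fold, 6.85 to 32.4). In the photoconversion library it was at 129 and 11.7 CPM (11.0-fold, 4.17 to 41.2). Csf1, the gene of the growth factor that acts on microglia through CSF1R, was at 149 and 15.3 CPM in the control (9.71-fold, 5.15 to 20.6) and at 106 and 23.4 CPM in the photoconversion library (4.52-fold, 2.19 to 10.8). Igf1, an insulin-like growth factor gene, was at 285 and 9.20 CPM (31.0-fold, 14.1 to 85.1) and at 264 and 26.3 CPM (10.0-fold, 5.19 to 22.3). The wide intervals follow from the 4 to 10 UMIs of these genes in the P2ry12-dominant sums.

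**Figure D1:**
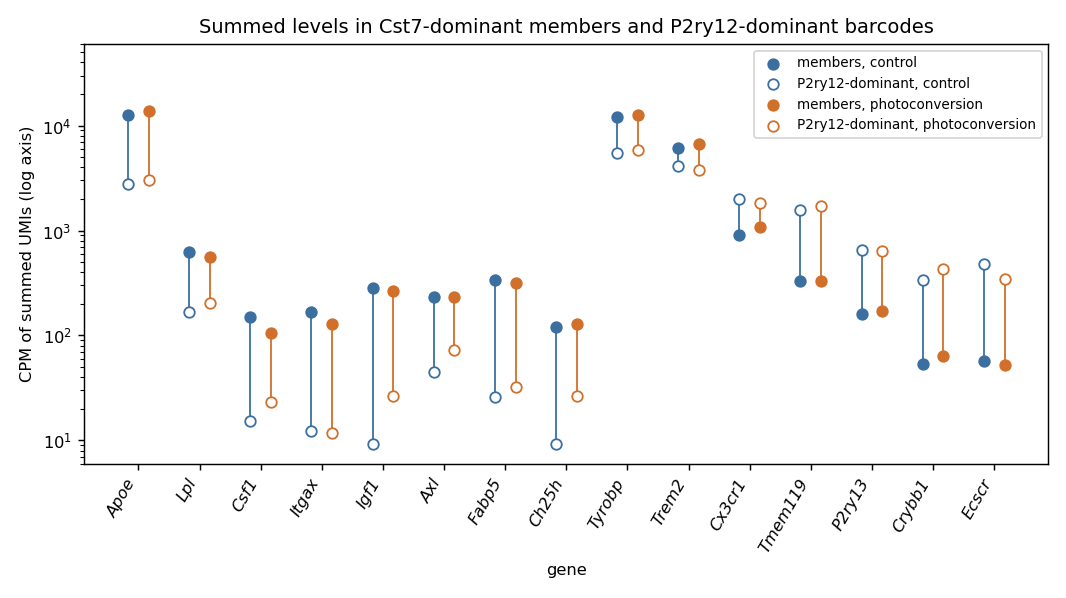
Levels of 15 genes in members and P2ry12-dominant barcodes of each library, as CPM of the summed UMIs on a log axis, with 1 point per sum. Apoe, Lpl, Itgax, Csf1 and Igf1 lie higher in both member sums, and Tmem119 and Cx3cr1 lie lower.

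The Trem2-dependent list had 22 matched genes, of which 20 were measured here. It had 17 higher genes and none lower, the others being Trem2, Cd9 and Ctsl, with median log2 ratios of 1.85 in the control library and 1.42 in the photoconversion library, beside -0.26 and -0.21 for all genes. Fabp5, a fatty acid binding protein gene, was higher by 3.67 and 3.25 on the log2 scale, and Ch25h, which makes 25-hydroxycholesterol, by 3.59 and 2.21. Axl, a receptor kinase gene for apoptotic cell clearance, was higher by 2.36 and 1.65, Baiap2l2 by 2.55 and 2.90, and Ank by 1.80 and 2.37. Trem2 itself did not reach 1.5-fold in the control, at 6152 against 4141 CPM (log2 0.57), and was at 6627 against 3764 CPM in the photoconversion library (log2 0.82). Cd9, a tetraspanin gene, was short of 1.5-fold, with log2 ratios of 0.20 and 0.17.

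The Trem2-independent list had 7 of 10 genes higher and none lower, with medians of 1.06 and 0.92. Tyrobp, whose product DAP12 is the signalling adaptor of TREM2, was higher by 1.15 and 1.10, and Lyz2, the lysozyme gene, by 1.32 and 1.34. Ctsb and Ctsd, which encode lysosomal cathepsins, were higher by 1.13 and 0.94 and by 1.0 and 0.94. B2m, the invariant chain of MHC class I, had log2 ratios of 0.55 and 0.46 and Fth1, a ferritin gene, of 0.76 and 0.42, both short of 1.5-fold in at least 1 library. By TMM B2m, Fth1 and Trem2 were past 1.5-fold in both libraries, with log2 ratios of 0.85 and 0.76, of 1.07 and 0.72, and of 0.87 and 1.11.

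The lipid list shared Apoe, Lpl, Fabp5 and Ch25h with the lists above, and had 9 of 20 genes higher and 1 lower, with medians of 0.52 and 1.25. The glycolysis and hypoxia list had 12 of 16 genes higher and none lower, with medians of 0.98 and 0.87. Hif1a, the gene of the hypoxia-inducible transcription factor subunit, was higher by 1.86 and 2.02, the glycolytic enzyme gene Pgk1 by 1.49 and 1.49, Gapdh by 1.27 and 1.12, and Aldoa by 1.07 and 1.06. Mif, a cytokine gene outside the lists, was higher by 1.62 and 1.93, and Psat1, a gene of serine synthesis, by 1.64 and 1.94. Of 75 nuclear oxidative phosphorylation genes 10 were higher and none lower, and Cox6a2, a cytochrome oxidase subunit gene, was among those most above P2ry12-dominant barcodes (3.38 and 2.50).

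Not all lysosomal genes were higher. The cathepsin list also holds Lgmn, which is not a cathepsin gene. Of its 11 measured genes 3 were higher (Ctsb, Ctsd and Ctsz) and 2 lower (Lgmn and Ctsc). The list's median of -0.17 and -0.21 turned positive under TMM scaling (0.14 and 0.09). Lgmn, the legumain gene, was lower by CPM, with log2 ratios of -1.24 and -1.17. Of 19 lysosomal hydrolase and activator genes, 3 were higher, among them Gusb (1.13 and 0.79) and Npc2 (0.95 and 0.98), and 1 was lower, while by TMM 8 were higher and none lower. Ctsl and Ctsz fall outside the rule for named genes and were named after their values were seen. Cst3, the gene of cystatin C, was lower, at 42697 against 79415 CPM in the control library and 47655 against 80120 CPM in the photoconversion library. By TMM its log2 ratios were -0.59 and -0.45, and the second was short of 1.5-fold.

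Among secreted factors, the chemokine genes Ccl3, Ccl4 and Ccl6 were higher, at log2 ratios of 1.27 and 2.72, of 1.55 and 0.69, and of 1.30 and 1.12. The whole chemokine and cytokine list had 4 of 14 genes higher, these and Cxcl14, and 5 lower, with medians of -0.54 and -0.64. By TMM 4 genes of this list were higher and 2 lower, with medians of -0.23 and -0.34. Spp1, the osteopontin gene, was higher by 3.95 in the control library and 1.39 in the photoconversion library, and Lgals3, the galectin-3 gene, by 3.08 in the control. Both had many of their control UMIs in 1 member, as described below. In the photoconversion library Lgals3 had 2 UMIs in the P2ry12-dominant sum, a ratio of 11.7 (3.08 to 99). In the interferon list 1 gene of 23 was higher, Ifi27l2a, at 1.49 and 1.78. Another 2 were lower, among them Ifit3 (-1.16 and -2.46), whose members' sums held 27 and 22 UMIs. In barcodes thinned to 4000 UMIs, the median of Ifit3 was 0 in members and in P2ry12-dominant barcodes of both libraries. In the photoconversion library the highest member had 4 Ifit3 UMIs and the highest P2ry12-dominant barcode 15, against 2 and 6 in the control. How much of these ratios rests on single barcodes was not tested. By TMM the interferon list had 2 genes higher and 1 lower. No gene of the complement and integrin list was past 1.5-fold in both libraries of 10 measured.

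On the other side stood the homeostatic genes, of which 30 of 39 were lower and none higher, with medians of -1.09 and -1.13. P2ry12, which the rule used, is not in this list. Tmem119, a microglial membrane protein gene, was at 333 against 1572 CPM in the control (ratio 0.212, 0.188 to 0.239) and at 334 against 1729 CPM in the photoconversion library (0.193, 0.166 to 0.224). Cx3cr1, the fractalkine receptor gene, was at 905 against 2003 CPM (0.452, 0.415 to 0.491) and at 1077 against 1849 CPM (0.582, 0.525 to 0.647). By TMM the log2 ratios of Cx3cr1 were -0.84 and -0.48, and the second was short of 1.5-fold. P2ry13, a purinergic receptor gene related to P2ry12, had ratios of 0.245 (0.204 to 0.293) and 0.269 (0.215 to 0.334).

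The lowest genes by the smaller of the libraries' log2 ratios were also largely of this list. Ecscr had log2 ratios of -3.06 and -2.68, the crystallin gene Crybb1 -2.67 and -2.75, and the adhesion receptor gene Adgrg1 -2.34 and -2.09. Lst1, outside the list, had -2.29 and -2.63. Ifngr1, an interferon gamma receptor gene, had -2.04 and -1.94, and Tmem173, which encodes the DNA-sensing adaptor STING, -2.02 and -1.69. Csf1r, the receptor gene for the growth factors that sustain microglia, was lower by less (-0.88 and -0.84), and by TMM it was short of 1.5-fold in both libraries (-0.58 and -0.55).

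Under TMM scaling the Trem2-dependent list had 18 higher genes, the Trem2-independent list 9, the glycolysis and hypoxia list 13 and the lipid list 9 with 1 lower, and 22 homeostatic genes were lower. The scaling changed the counts of other lists more. Cytosolic ribosomal protein genes went from 3 to 56 higher of 81, oxidative phosphorylation genes from 10 to 35 of 75, and ferritin and antioxidant genes from 1 to 7 of 14. Ribosomal protein genes took 22.1% and 22.7% of the members' UMIs and 15.8% and 17.8% of those of P2ry12-dominant barcodes.

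**Figure D2:**
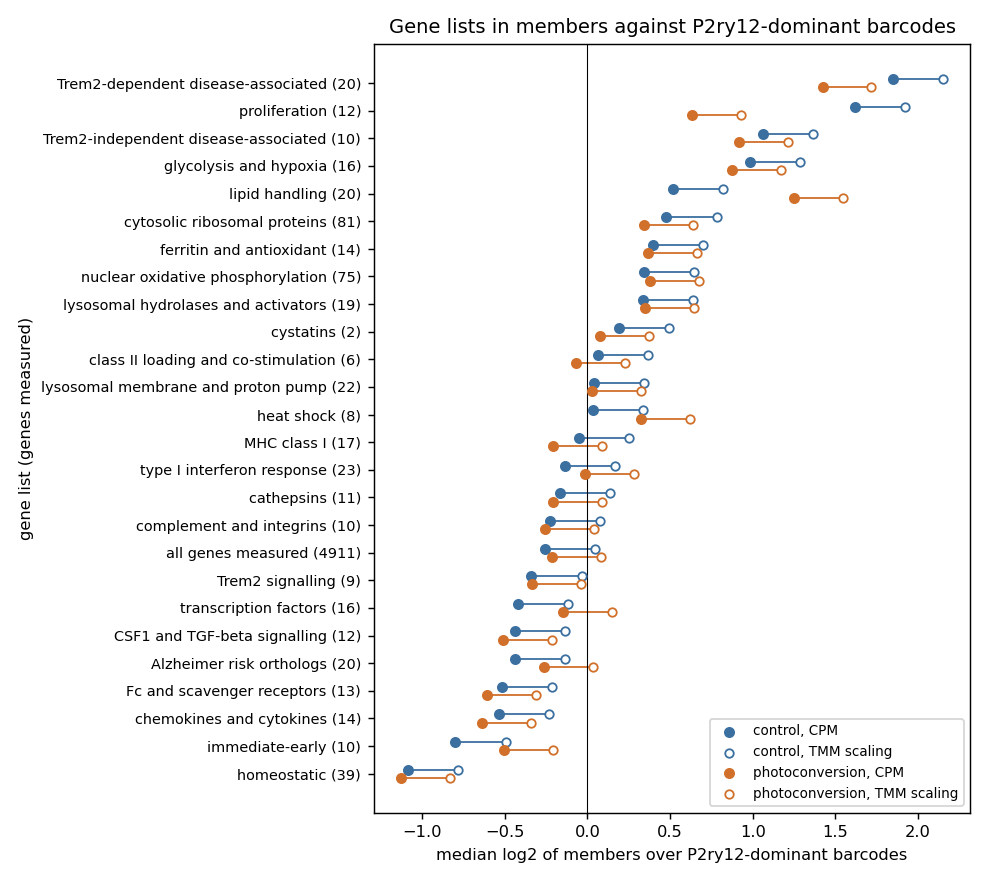
Median log2 ratio of members over P2ry12-dominant barcodes for each gene list in each library, by CPM and by TMM scaling. The Trem2-dependent list lies at 1.85 and 1.42 by CPM, and the homeostatic list lies at -1.09 and -1.13.

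Single barcodes are described after thinning to 4000 UMIs, which makes their depth equal. This left 90 of 99 control and 59 of 68 photoconversion members, and 79 of 163 and 39 of 76 P2ry12-dominant barcodes. Trem2-dependent genes held a median of 2.70% of a control member's UMIs (10th to 90th percentile 1.60 to 3.83%) and 2.53% of a photoconversion member's (1.85 to 3.41%). In P2ry12-dominant barcodes the medians were 1.30% (0.775 to 2.45%) and 1.2% (0.845 to 2.0%). Unthinned, the members' medians were 2.73% and 2.56%. The ranges of members and P2ry12-dominant barcodes therefore overlapped.

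Homeostatic genes held medians of 6.79% and 7.05% of a member's UMIs and 11.9% and 11.4% of a P2ry12-dominant barcode's. Trem2-independent genes held 8.04% and 8.4% against 3.75% and 3.60%, and lipid genes 1.41% and 1.65% against 0.35% and 0.35%. Most of the members' lipid share was Apoe. In the summed UMIs of members the lipid list held 1.75% and 1.86%, and Apoe alone was at 12587 and 13737 CPM. The cathepsin list held 5.21% and 4.70% against 3.40% and 3.08%, although the median gene of that list was lower in members by CPM. Glycolysis and hypoxia genes held 0.625% and 0.60% against 0.30% in both libraries.

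**Figure D3:**
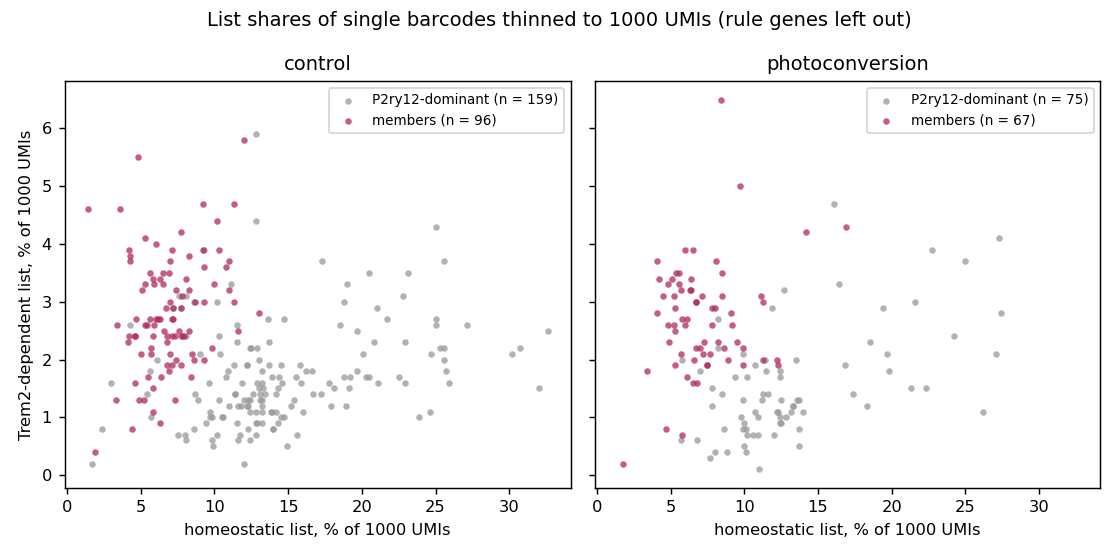
Share of UMIs from the Trem2-dependent list against the share from the homeostatic list, as percent of 1000 thinned UMIs, with 1 point per barcode, for members and P2ry12-dominant barcodes of each library. Members lie at larger Trem2-dependent and smaller homeostatic shares, and the clouds overlap.

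Against all other kept barcodes, which also hold the class II-rich and Malat1-poor Cst7-dominant ones, a smaller share of genes was past 1.5-fold. Of 6260 genes measured, 148 were higher (2.36%) and 388 lower (6.2%), with median log2 ratios of -0.10 and -0.02. The Trem2-dependent list had 3 of 21 genes higher, Ch25h, Baiap2l2 and Cd63, with medians of 1.19 in the control library and 0.37 in the photoconversion library, and the homeostatic list had 18 of 40 lower, with medians of -0.72 and -0.46. Itgax had a log2 ratio of 2.34 in the control library and 0.14 in the photoconversion library, Csf1 of 1.92 and 0.12, Igf1 of 1.86 and 0.34, and Fabp5 of 1.67 and 0.34. Itgax was at 169 and 129 CPM in members and at 33.2 and 117 CPM in the other barcodes. Whether these ratios differ between libraries was not tested.

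Genes higher in members than in the other barcodes of both libraries included Ch25h (1.84 and 1.87), Apbb2 (1.60 and 1.61), Psat1 (1.26 and 1.26), Capg, an actin-capping protein gene (1.01 and 0.77), Ccl3 (0.95 and 1.06), Cd63, a tetraspanin gene of late endosomes (0.91 and 0.74), and Plaur, the urokinase receptor gene (0.94 and 1.02). The ratios of Ch25h, Apbb2 and Psat1 were thus nearly equal in both libraries. The class II-rich Cst7-dominant barcodes carried the same marker genes, with Itgax at 211 and 304 CPM and Lpl at 832 and 784 CPM.

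Many UMIs of the proliferation list were in few members. The list had 7 of 13 genes higher and none lower against the other kept barcodes, and 5 of 12 against P2ry12-dominant barcodes. By TMM these counts were 8 of 13 and 9 of 12. Of 1860 UMIs of this list in control members, 524 and 216 were in 2 members, and the next had 49. Of 1515 in photoconversion members, 461 and 440 were in 2, and the next had 28. Stmn1, which encodes a microtubule-destabilising protein of dividing cells, had 96 and 61 of its 233 UMIs in 2 control members and 85 and 65 of 169 in 2 photoconversion members. These 4 members had 22340 to 25011 UMIs and 51 to 124 Cst7 UMIs, and without the deepest 5% of barcodes Stmn1 was lower in photoconversion members than in P2ry12-dominant barcodes (log2 -1.40). The median member had 0.0879% and 0.0784% of its UMIs from the list. Doublets were not removed.

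Between libraries, the members' summed levels of the 6 marker genes were within 1.5-fold of each other. The comparison is of the members' summed UMIs, 1095411 in the control library and 776546 in the photoconversion library, and the rule was the same in both. Of 6379 genes with at least 20 UMIs over both libraries, 598 were past 1.5-fold higher in the photoconversion library (9.37%) and 667 lower (10.5%), with a median log2 ratio of -0.01. With 1 library per group these counts have no replicate check. TMM scaling moved the log2 ratios by -0.01.

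Cst7, used by the rule, had a photoconversion to control ratio of 0.981 (0.940 to 1.02). Apoe had a ratio of 1.09 (1.06 to 1.12), Lpl of 0.909 (0.804 to 1.03) and Igf1 of 0.927 (0.773 to 1.11). Csf1 was at 149 and 106 CPM, a ratio of 0.710 (0.538 to 0.931), and Itgax at 169 and 129 CPM, a ratio of 0.763 (0.592 to 0.978). The intervals of Csf1 and Itgax lay below 1, and those of Lpl and Igf1 held 1. In the other kept barcodes both Csf1 (39.2 and 97.1 CPM) and Itgax (33.2 and 117 CPM) were higher in the photoconversion library. The class II limit of the rule left out 8 control and 25 photoconversion Cst7-dominant barcodes. In members Trem2 had a ratio of 1.08 (1.04 to 1.12), Tyrobp of 1.04 (1.01 to 1.07) and Axl of 1.01 (0.829 to 1.23). None of these genes was past 1.5-fold between the members of the libraries.

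Homeostatic genes were within 1.5-fold too. Tmem119 had a ratio of 1.0 (0.850 to 1.18), and Cx3cr1 of 1.19 (1.08 to 1.31). No homeostatic gene of 39 measured was past 1.5-fold in either direction, and their median log2 ratio was 0.02. The Trem2-independent list had none of 10 past 1.5-fold, with a median of -0.02. The Trem2-dependent list had 3 of 21 lower, Spp1, Lgals3 and Gpnmb, and none higher, beside 10.5% lower and 9.37% higher over all genes. Its median was -0.11, and 17 of its genes lay below 0, beside 3233 of 6379 over all genes. Gpnmb had 18 UMIs in control and 2 in photoconversion members, a ratio of 0.157 (0.0176 to 0.655), and 10 of the 18 were in 1 member. The other kept barcodes had 19 Gpnmb UMIs in the control library, 17 of them in 1 barcode, and 70 in the photoconversion library, 32 of them in 1 barcode. Ctsb was at 7532 CPM in control and 6270 CPM in photoconversion members, a ratio of 0.832 (0.803 to 0.863). The medians of the cathepsin list (-0.17, 9 of 11 below 0), lysosomal hydrolase genes (-0.23, 14 of 20) and glycolysis and hypoxia genes (-0.22, 13 of 16) lay below that of all genes. Of 82 ribosomal protein genes 63 lay above 0, with a median of 0.05.

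**Figure D4:**
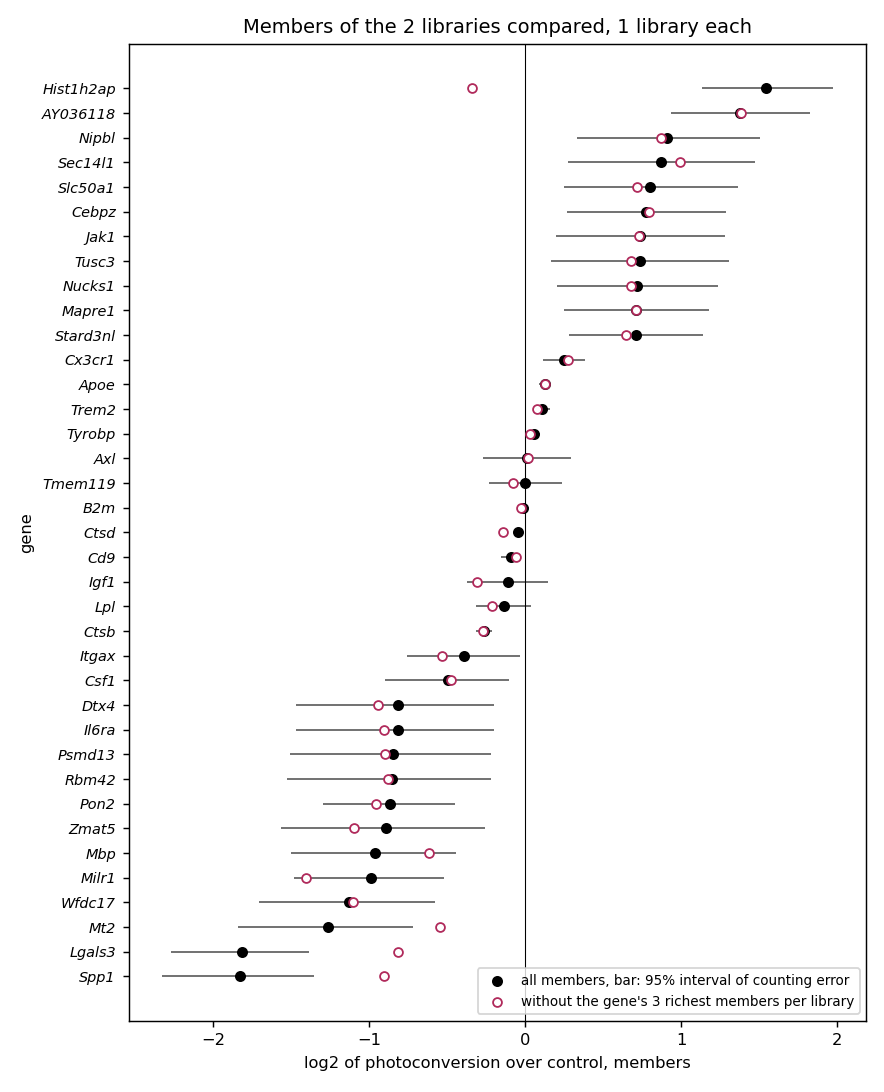
Log2 ratio of photoconversion over control in members for named genes, with 95% intervals of counting error, and the same without the 3 members richest in each gene. Apoe, Tmem119 and Tyrobp lie near 0, and Spp1, Lgals3 and Hist1h2ap move toward or across 0 without their richest members.

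The genes with the lowest and highest ratios rested in part on single barcodes. Spp1 was at 201 CPM in control and 56.7 CPM in photoconversion members, a ratio of 0.282 (0.199 to 0.391), and 107 of its 220 control UMIs were in 1 member. Without the 3 richest members of each library its log2 ratio went from -1.81 to -0.91. Lgals3 was at 240 and 68.3 CPM, a ratio of 0.284 (0.207 to 0.383), and 184 of its 263 control UMIs were in 1 member that had 3 Cst7 and 10 Apoe UMIs of 14101 in all. Without the richest members its log2 ratio went from -1.80 to -0.82. The intervals of such genes do not cover this concentration in single barcodes.

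Mt2, a metallothionein gene, had a log2 ratio of -1.25, and 67 of its 122 control UMIs were in the member with astrocyte markers. Without the 3 members with markers of another cell type, its log2 ratio was -0.11. Mbp, the myelin basic protein gene, had a ratio of 0.514 (0.354 to 0.735), with 32 of 118 control UMIs in 1 member. Milr1, an immunoglobulin-like receptor gene, had a ratio of 0.503 (0.358 to 0.697), and its log2 ratio went from -0.98 to -1.40 without its richest members. Pon2, a paraoxonase gene, had a ratio of 0.550 (0.408 to 0.733), with -0.95 on the log2 scale without them, so both kept their direction.

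At the high end stood Hist1h2ap, a histone gene with near-identical copies whose reads may be split, at a ratio of 2.92 (2.19 to 3.92), with 101 and 37 of its 149 photoconversion UMIs in 2 members, and a log2 ratio of -0.34 without the 3 richest of each library. AY036118 had a ratio of 2.59 (1.91 to 3.54). Nipbl, a cohesin loader gene, had 1.88 (1.26 to 2.83) and Sec14l1 1.83 (1.21 to 2.77). The interferon list had 7 of 26 genes higher and 2 lower, beside 9.37% and 10.5% over all genes, and a median of -0.03. H2-Aa, which the rule limits, was at 35.6 and 70.8 CPM, a ratio of 1.99 (1.30 to 3.08), while H2-Ab1 was at 152 and 121 CPM (0.794, 0.610 to 1.03).

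By variance over the mean, which rises with the mean, Apoe varied most of the genes measured. In members thinned to 4000 UMIs, Apoe had 3, 35 and 110 UMIs at the 10th, 50th and 90th percentile in the control, with 0 and 324 in the lowest and highest member. The photoconversion members had 8.6, 44 and 128, with 2 and 205. The variance over the mean was 60.3 and 38.7, against medians of 1.23 and 1.18 over 674 genes with a mean of at least 0.5 UMIs. Pure counting error gives about 1. P2ry12-dominant barcodes had a median of 4 Apoe UMIs in both libraries. Low-Apoe members thus overlapped with the P2ry12-dominant barcodes.

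Cst7, whose low counts the rule left out, had 5.9, 17 and 32.1 UMIs at these percentiles in the control and 8, 17 and 32.6 in the photoconversion library. Its means were 18.4 and 19.6 UMIs, against 50.1 and 55.2 for Apoe, so their spreads are not set against each other. Its variance over the mean was 6.34 and 5.79. Cst3 had 26.2 and 24.7, Ctsd 13.9 and 25.6, Ccl4 18.9 and 10.6, and Ccl3 7.73 and 9.10. Ccl4 had 0, 1 and 11 UMIs in the control and 0, 1 and 6.2 in the photoconversion members, with up to 43 and 26 in 1 member. The marker genes Csf1 (1.33 and 0.88), Itgax (1.49 and 1.15) and Axl (1.44 and 1.10) lay near the median of the 674 genes. Lpl (3.86 and 2.52) and Igf1 (2.15 and 1.49) lay above it. In photoconversion members Csf1 and Itgax had means of 0.34 and 0.39 UMIs, below the 0.5 of those genes. At so low a mean this measure says little of how evenly members hold them.

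**Figure D5:**
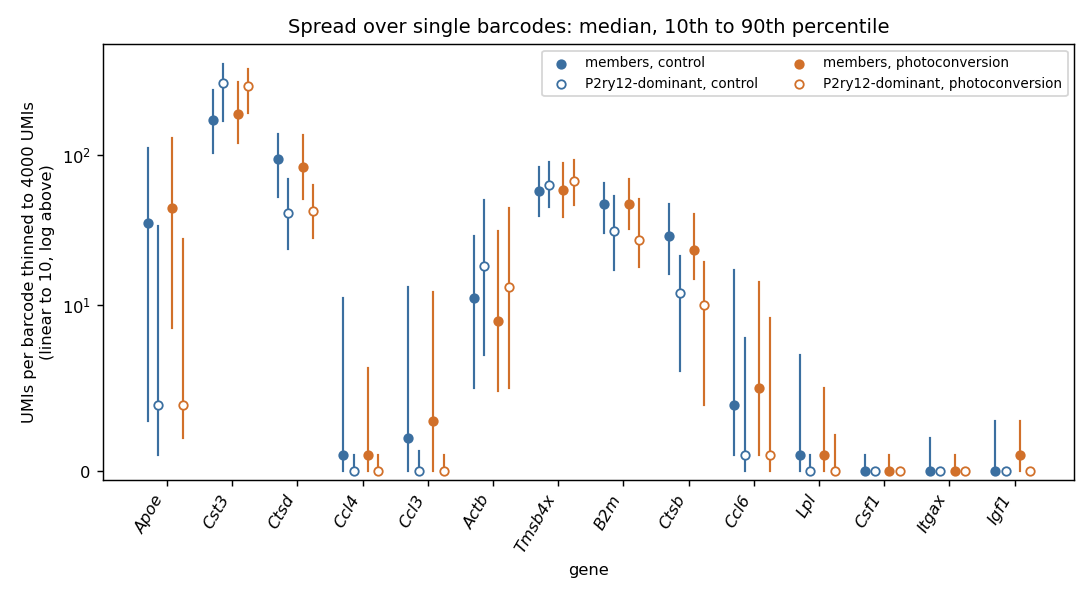
UMIs per barcode thinned to 4000 UMIs for 14 genes, in members (filled points) and P2ry12-dominant barcodes (open points) of each library, with the median as a point and the 10th to 90th percentile as a line, on an axis that is linear to 10 and logarithmic above. Apoe spans 3 to 110 UMIs in the control and 8.6 to 128 in the photoconversion members, and its P2ry12-dominant median is 4 in both.

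How gene lists varied together over members is given as Pearson's r over 90 control and 59 photoconversion members, without a test, since members of a library share that library and shares of 4000 UMIs share 1 total. The Trem2-dependent share had r of 0.64 and 0.70 with the cathepsin share, and Ctsl is in both lists. It had 0.10 and 0.12 with the homeostatic share, -0.37 and -0.60 with the ribosomal protein share, and 0.29 and 0.60 with the Trem2-independent share. With the chemokine share it had 0.55 in the control library and 0.10 in the photoconversion library. By Spearman's rank correlation the values were 0.07 and -0.07 with the homeostatic share and 0.27 and 0.45 with the Trem2-independent share. Over the same members Cst7 had r of 0.54 and 0.64 with Ctsd and 0.50 and 0.37 with Tyrobp. With Apoe it had 0.11 and 0.32, and with Lpl -0.01 and -0.04.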

How the data were processed

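The values are raw UMI counts per gene and barcode, as deposited by the authors, for 31053 genes and 2000 barcodes in each library. The submitters' processing notes name bcl2fastq, Cell Ranger and the build mm10, and the file headers give version 3.0.2 for Cell Ranger. Doublets were not removed, and the rule for members was applied to the counts as deposited.

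UMIs were summed per library over members, other kept barcodes and P2ry12-dominant barcodes and scaled to CPM, and log2 ratios had 0.5 added to each sum. Ratios printed with an interval had nothing added and carry exact conditional binomial intervals, and shares carry Clopper-Pearson intervals, at 95%. Limits of differences between shares combine both intervals. Genes needed 20 UMIs to be measured, and 100 to be named for size. Named were the 15 highest and 15 lowest genes of each comparison with other barcodes, the 12 highest and 12 lowest between libraries, the 12 with the most variance over mean, up to 4 of each list and a set of marker genes. Those that carry a comparison are described. Some of these genes are not reported here. The members and lists were chosen with earlier results of these data known. For 2 list entries no symbol matched, and they are not analysed here. Thinning took UMIs at random without replacement with seed 1. The ratios between libraries, their intervals and the thinning were tested on simulated counts with counting error only. The simulation did not hold the larger spread between members seen here, and other steps were not simulated. Python 3.11.15, numpy 2.4.6, pandas 2.3.3, scipy 1.17.1 and matplotlib 3.10.9 were used, and edgeR 4.0.16 and DESeq2 1.42.0 in R 4.3.3 for other scalings only. Gene spans were looked up by identifier in GENCODE on that assembly. Depth limits precision for genes with few UMIs, and intervals show it.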

Additional observations from a re-analysis of the deposited data

Results flagged for a closer look

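The Spp1 ratio of members over other kept barcodes had opposite signs in the libraries, with log2 ratios of 1.22 for control and -3.58 for photoconversion. The difference was not tested. Members had 220 and 44 Spp1 UMIs and the other kept barcodes 114 and 714. In the control, 107 of the members' UMIs were in 1 barcode. In the photoconversion library, 349 of the other barcodes' 714 UMIs were in 1 barcode with 93 Cst7 UMIs and 4.96% class II, and 159 in another with 18 Cst7 UMIs and 4.45% Malat1, which lay outside the rule by its class II and its Malat1 share.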

How the results depend on the processing

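No paired analysis was possible because each group has 1 library. Member shares in percent (control, photoconversion) were 31.9 and 36.3 with no Malat1 limits, 14.2 and 16.1 with class II below 0.1%, 28.7 and 28.7 at 2000 UMIs or more, and 35.0 and 45.9, a difference of 11.0 points, over barcodes inside the limits. The photoconversion share was 29.3, a difference of 10.1 points, with no class II limit and 26.5 at up to 5% mitochondrial UMIs. Genes higher and lower than P2ry12-dominant barcodes numbered 588 and 342 by TMM and 570 and 349 by DESeq2's median of ratios. With every barcode weighed equally, 281 were higher and 597 lower than in other barcodes. Counts are given next against other barcodes, against P2ry12-dominant ones and between libraries, each of the genes measured. Thinned to 1000 UMIs they were 75 and 105 of 1484, 98 and 112 of 844, and 87 and 102 of 904. They were 63 and 163 of 3427, 147 and 348 of 2419, and 147 and 185 of 3491 with at least 50 UMIs. With at least 1 they were 613 and 1387 of 12099, 705 and 2082 of 11305, and 2380 and 2944 of 12673. Fewer or more genes were measured in these.

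Log2 ratios of named genes that were past 1.5-fold in the main values and changed sign are listed here. Sign changes of smaller ratios are not listed. In photoconversion members they were, weighed equally, Ifit1 against other barcodes (1.08) and P2ry12-dominant ones (0.23) and Txnrd1 against other barcodes (0.31). Thinned, it was Il6ra against other barcodes (0.028). Without the deepest 5% of barcodes the listed ratios in photoconversion members were, against other barcodes, H2afz (-0.046), Hist1h2ap (-1.86) and Stmn1 (-0.87). Against P2ry12-dominant ones it was Stmn1 (-1.40). With at least 4 Cst7 UMIs they were, against other barcodes, Clu (-1.34), Lgals3 (-1.68) and Mt2 (-1.03) in the control and Pltp (-5.97) in the photoconversion library. Between libraries they were Tlr7 (0.14) weighed equally, and Hist1h2ap without the deepest (-0.61) and without its 3 richest members (-0.34). The cause was not tested. Values under 20 UMIs in an alternative, 652 in all, were left out. All 273 list medians between libraries stayed within 1.5-fold of their main values, and no spread was computed for them. Leaving out members with markers of another cell type, chosen after seeing the data, gave 148 higher and 394 lower genes than other barcodes, 245 and 796 than P2ry12-dominant ones, and 602 and 645 between libraries.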

Other observations

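Further gene groups are given by their counts of genes past 1.5-fold against P2ry12-dominant barcodes, beside 5.13% higher and 16% lower over all genes by CPM. Of 13 Fc and scavenger receptor genes, 1 was higher and 5 lower, with medians of -0.52 and -0.61. Stab1, a scavenger receptor gene, had log2 ratios of -1.63 and -1.96, and Tlr4, the lipopolysaccharide receptor gene, -1.91 and -2.13. Of 10 immediate-early genes, 1 was higher and 4 lower, with medians of -0.80 and -0.50, and Nfkbia, which encodes an inhibitor of NF-kappaB, had -1.67 and -2.03. By TMM these counts were 1 and 2, and 1 and 1. Hmox1, which encodes the haem-degrading enzyme haem oxygenase, was the 1 gene higher of 14 in the ferritin and antioxidant list by CPM, and the list had 7 higher by TMM. Of 20 orthologs of human Alzheimer risk genes, Apoe and Ctsb were higher and 7 were lower by CPM, and 4 were higher and 4 lower by TMM. The MHC class I list had none of 17 higher and 1 lower by CPM, and 1 higher and none lower by TMM.

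Barcodes that met the rest of the rule but had too few genes or too many mitochondrial UMIs numbered 11 of 1445 in the control (0.761%) and 6 of 1683 in the photoconversion library (0.357%).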
